A study of Mus musculus with 6 samples.

Results

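The genes described here are 10 genes of the cellular response to low oxygen: the hypoxia-inducible factor (HIF) subunits Hif1a, Epas1 and Arnt, their negative regulators Vhl, Egln1 and Egln3, and the non-glycolytic targets Car9, Bnip3, Ankrd37 and Adm. They were taken by symbol and role from the 54232 genes of the count table. All 10 were found, all are protein-coding, and all 10 were among the 17474 genes that received an adjusted p-value. Their transcripts were measured by RNA-seq in mouse uterine stromal cells (mUSCs) taken on D4, with 3 WT and 3 Pbrm1 cKO libraries. Pbrm1 encodes PBRM1, a subunit of a SWI/SNF chromatin remodeling complex. The Pbrm1 cKO mice carry floxed Pbrm1 alleles (Pbrm1 fl/fl) and PR-IRES-cre, a Cre driven from the progesterone receptor gene. Such a Cre acts in uterine epithelium as well as stroma, and in other cells that express the receptor. Controls are labelled WT, but the controls of the study are described there as Pbrm1 fl/fl. Mice were 8 to 12 weeks old. Per the methods of the study, preparations of both groups pooled 5 to 10 uterine horns of pseudopregnant females, while a label speaks of pregnancy. The cells were cultured with 10% serum, given new medium after 4 h and harvested 2 h later. Nothing in these sources states the oxygen tension or a hypoxic treatment, so all values are those of cells in routine culture. The study calls its 3 replicates of each group biological; how many animals went into each library is not given in the sources used here, and p-values measure the spread between these libraries.

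HIF is a dimer of an oxygen-labile alpha subunit, HIF-1α (Hif1a) or HIF-2α (Epas1), and the stable partner ARNT (Arnt), also called HIF-1β. When oxygen is plentiful, the prolyl hydroxylases PHD2 (Egln1) and PHD3 (Egln3) hydroxylate the alpha subunit, the ubiquitin ligase built on the von Hippel-Lindau protein (Vhl) binds it, and it is degraded. When oxygen falls, the alpha subunit accumulates mainly through protein stability, and the dimer activates genes through the hypoxia response element, whose core letters are ACGTG or GCGTG. Egln1 and Egln3 are themselves HIF targets, which closes a feedback loop. In the uterus the pathway is known for its part in vascular remodeling and in the decidual response around implantation. The counts report transcripts, so HIF protein and its activity were not measured.

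The core letters were looked up in the 250 bases before the RefSeq transcription start of each gene (build GRCm38.p6), searching ACGTG and GCGTG on both strands. A palindromic CACGTG holds ACGTG on both strands and counts as 2 matches. Of the 10 genes, 9 were in the RefSeq promoter table and 8 of those had at least 1 match, with no match in the window of Vhl. Epas1 was not in the table. Among all 32851 promoters of the table, 38.6% held at least 1 match and 16.7% held 2 or more. Bnip3 had 5 matches, Ankrd37 4, Hif1a 3, Egln1 and Adm 2 each, and Arnt, Egln3 and Car9 1 each. The windows of Hif1a and Ankrd37 belong to RefSeq starts 6492 and 5857 bases from the start of the GENCODE gene. A match is a run of letters, not a bound site, and the absence of these letters in 1 window says nothing of the factor. Stretches with matches that lie outside the GENCODE gene models are printed below for 3 genes called different between the groups (Egln1, Arnt and Adm) and for 2 targets that were not called (Egln3 and Bnip3). They are written 5′ to 3′ on the strand of the gene, and capitals mark the core letters or their complement (CACGT and CACGC).
Egln1, chr8:124949356-124949400, minus strand: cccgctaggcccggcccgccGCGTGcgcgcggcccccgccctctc
Arnt, chr3:95434341-95434385, plus strand: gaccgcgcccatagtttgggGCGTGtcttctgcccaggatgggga
Adm, chr7:110627547-110627627, plus strand: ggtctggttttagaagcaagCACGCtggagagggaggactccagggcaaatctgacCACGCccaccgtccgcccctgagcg
Egln3, chr12:54204079-54204123, minus strand: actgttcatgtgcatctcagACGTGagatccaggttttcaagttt
Bnip3, chr7:138909581-138909643, minus strand: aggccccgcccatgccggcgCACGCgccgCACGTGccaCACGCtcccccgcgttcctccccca
The Bnip3 stretch alone holds 4 of that gene's 5 matches, including the palindrome, whereas the Egln1 and Adm stretches printed hold GCGTG or its complement only.

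Total counts were 13253575 to 18338667 per library. A gene with 0 counts could still be present at the level of 3 counts, which is 0.164 to 0.226 CPM (the count scaled to library size), a limit for counting error only. Transcripts of the deleted gene fell: Pbrm1 was at 1354, 1385 and 1677 normalized counts in WT replicates 1 to 3 and at 397, 459 and 451 in Pbrm1 cKO replicates 1 to 3, which is 29.6% of the WT mean (DESeq2 log2 fold change -1.76, SE 0.13, adjusted p = 5.19e-40). A normalized count is the count divided by the library's DESeq2 size factor. Some markers of other cells differed between the groups. Of 14 tested leukocyte markers 13 were higher in Pbrm1 cKO cells, with summed levels of 4130 to 8904 in WT and 36425 to 37767 in Pbrm1 cKO libraries, led by genes such as Cd74, the invariant chain of MHC class II (log2 fold change 3.05). Of 14 stromal markers 1 was higher and 7 were lower (sums 113227 to 130594 and 87598 to 94118). Of 15 tested epithelial markers 5 were called higher (sums 2034 to 3705 and 4013 to 4190), and of 10 smooth muscle markers 4 were called lower (sums 56742 to 61717 and 53921 to 55943). The shares called were 92.9% of leukocyte, 57.1% of stromal, 33.3% of epithelial and 40% of smooth muscle markers, beside 31.1% of all tested genes. The epithelial and smooth muscle shares are thus near the background. WT replicate 1 stood apart: it was the lowest WT library for 14 of 14 leukocyte, 13 of 14 endothelial and 14 of 15 epithelial markers, beside 39.1% of all tested genes. In bulk RNA, fewer cells of a type and less RNA per cell cannot be told apart, and the part of these cell mixtures in the results that follow was not tested.

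Adm, the gene for the vasodilator peptide adrenomedullin, was the member with the highest level per length, and Car9 was close to the detection limit. Levels are compared between genes as CPM per kilobase of exon (CPM per kb). Adm stood at 484 ± 42.4 CPM per kb in WT and 368 ± 9.42 in Pbrm1 cKO cells (SD, n = 3 each). Hif1a followed at 143 ± 14.1 and 168 ± 4.49, and Bnip3 at 71.4 ± 4.74 and 74.8 ± 7.31. The 2 abundant regulators came next, Egln1 at 19.3 ± 2.17 and 30.2 ± 1.95 and Vhl at 15.0 ± 1.36 and 19.1 ± 0.339. Below them lay Ankrd37 at 4.16 ± 1.55 and 4.82 ± 0.600, Arnt at 3.63 ± 1.57 and 5.65 ± 0.487, Epas1 at 2.96 ± 1.77 and 2.72 ± 0.160, and Egln3 at 2.95 ± 0.242 and 2.93 ± 0.134. Car9 was last, at 0.128 ± 0.138 and 0.161 ± 0.0748 CPM per kb. In WT cells the neighbours from Ankrd37 to Egln3 in this order did not differ beyond their spread, whereas each step from Adm down to Vhl was larger than the SDs of both neighbours. The cells therefore held far more transcript for HIF-1α than for HIF-2α or for the shared partner ARNT.

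**Figure D1:**
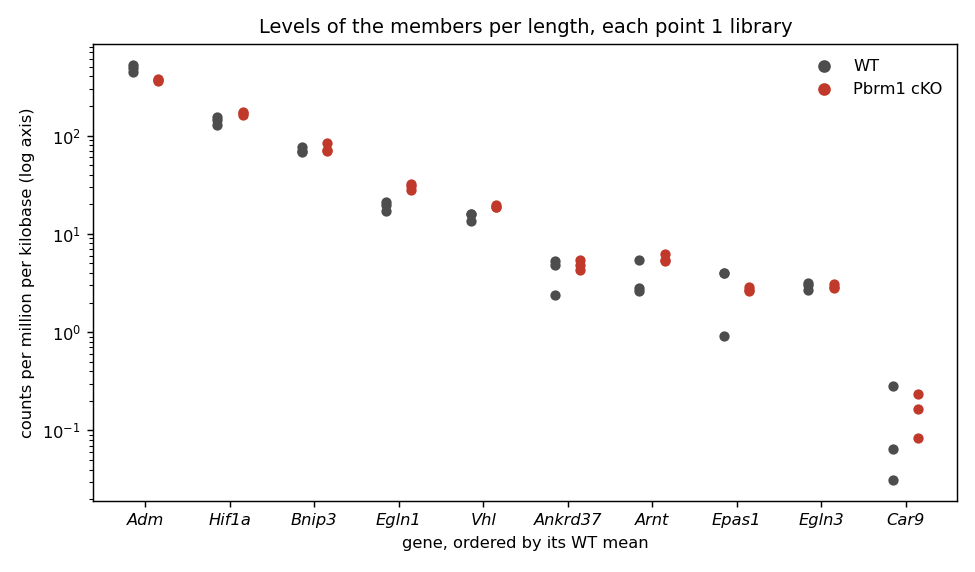
Level of each of the 10 genes in CPM per kilobase of exon (log axis), ordered by the WT mean, with 1 point per library (grey, WT; red, Pbrm1 cKO). Adm is highest in both groups and Car9 lowest, and the WT points of Ankrd37, Arnt and Epas1 overlap those of Egln3 but spread more widely.

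Between Pbrm1 cKO and WT cells, 3 of the 10 genes rose (Egln1, Vhl and Arnt) and 1 fell (Adm) at a DESeq2 adjusted p under 0.05. Over all genes tested, 15.9% were called higher and 15.2% lower, 31.1% in all, against 4 of 10 here. The 2 groups had separate ranges of normalized counts for 4 genes (Egln1, Vhl, Adm and Hif1a), against 48.6% of all tested genes. Both counts are near the background of this broad comparison and say nothing particular of the 10 genes as a group. Their median log2 fold change was 0.21, beside -0.00074 over all tested genes. The members moved in no single direction: the regulators that oppose HIF rose or did not pass, and of the 4 targets 1 fell and 3 did not pass.

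**Figure D2:**
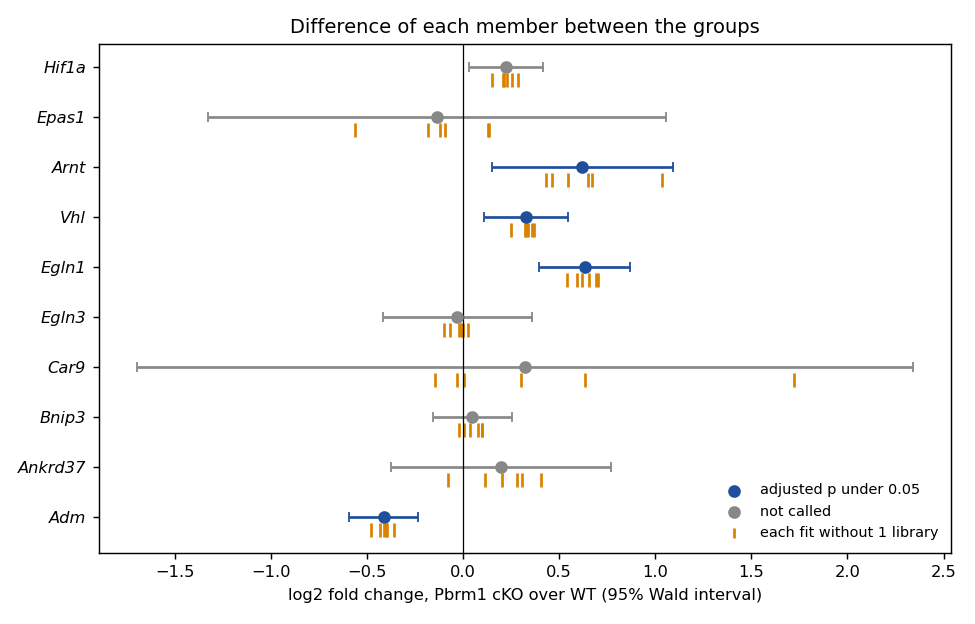
DESeq2 log2 fold change of each of the 10 genes, Pbrm1 cKO over WT, with its 95% Wald interval (blue, adjusted p under 0.05; grey, not called) and, under each, ticks for the 6 fits that each leave out 1 library. The ticks of Egln1 stay right of 0 and those of Adm left of 0, while those of Epas1, Egln3, Car9, Bnip3 and Ankrd37 fall on both sides.

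Among the oxygen sensors, Egln1 rose and Egln3 did not. Egln1 (ENSMUSG00000031987.6, chr8:124908587-124949324, minus strand, GRCm38) encodes PHD2, the main hydroxylase that sets HIF-1α stability in normal oxygen. It was at 1053, 892 and 1121 normalized counts in WT replicates 1 to 3 and at 1679, 1616 and 1458 in Pbrm1 cKO replicates 1 to 3. Every Pbrm1 cKO library was above every WT library. The group means were 1022 ± 117 and 1584 ± 114 (SD, n = 3 each), a 1.55-fold difference with a 95% Wald interval of 1.32 to 1.82 (DESeq2 log2 fold change 0.63, SE 0.12, adjusted p = 1.78e-06). The call held under all 14 alternatives tried, with log2 fold changes of 0.54 to 0.70.

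Egln3 (ENSMUSG00000035105.5, chr12:54178981-54203860, minus strand), the gene for the related hydroxylase PHD3 and in many cells a strongly hypoxia-inducible one, stood at 125, 105 and 118 normalized counts in the WT libraries, against 110, 120 and 112 in the Pbrm1 cKO libraries. The groups overlapped fully, with a fold of 0.980 and an interval of 0.748 to 1.28 (DESeq2 adjusted p = 0.937), so a rise of the size of that of Egln1 lay outside the interval. With Egln1 higher and Egln3 level, the ratio of Egln3 to Egln1 was lower in every Pbrm1 cKO library than in every WT library. Per length, Egln3 transcripts were 0.154 ± 0.0104 of those of Egln1 in WT and 0.0972 ± 0.00808 in Pbrm1 cKO cells. The log2 ratio differed by -0.66, with an exact two-sided permutation p = 0.1, the smallest that 3 against 3 can give.

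Vhl (ENSMUSG00000033933.13, chr6:113623959-113631633, plus strand), which encodes the substrate-binding part of the ubiquitin ligase for hydroxylated HIF-α, was at 703, 694 and 595 normalized counts in WT and at 825, 832 and 842 in Pbrm1 cKO replicates 1 to 3. The 3 Pbrm1 cKO libraries lay close together and above all 3 WT libraries. Vhl rose 1.25-fold (interval 1.08 to 1.46; DESeq2 log2 fold change 0.33, SE 0.11, adjusted p = 0.0151), and this small difference was at the edge of the threshold. When WT replicate 3 was left out, the adjusted p was 0.0538, and without Pbrm1 cKO replicate 1, 2 or 3 it was 0.0712, 0.0924 and 0.0779. Its direction was the same in every one of the 14 alternatives.

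Of the subunits, only Arnt passed the test, and its call depended on single libraries and on the processing. Hif1a (ENSMUSG00000021109.13, chr12:73901375-73947530, plus strand), the abundant alpha subunit, was at 11168, 13516 and 12562 normalized counts in WT replicates 1 to 3 and at 14874, 14654 and 13927 in Pbrm1 cKO replicates 1 to 3. The groups did not overlap, although the highest WT and the lowest Pbrm1 cKO library lay close together. The fold was 1.17 with an unadjusted interval of 1.02 to 1.33, and the adjusted p of 0.0671 missed the threshold in DESeq2 (log2 fold change 0.22, SE 0.10). It passed with limma voom (adjusted p = 0.0336) and when WT replicate 2 was left out (0.0219). A pair of small genes overlaps Hif1a, Gm15283 on the opposite strand over 330 exonic bases and Gm49321 on the same strand over 148, the latter with no counts.

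Arnt (ENSMUSG00000015522.18, chr3:95434388-95497240, plus strand), the partner of both alpha subunits and also of the aryl hydrocarbon receptor, was at 310, 333 and 643 normalized counts in WT replicates 1 to 3 and at 635, 728 and 615 in Pbrm1 cKO replicates 1 to 3. WT replicate 3 lay within the Pbrm1 cKO range and at 2.00 times the mean of the other WT libraries. A WT replicate 3 at least 1.5 times both other WT libraries was found for 283 of 10985 genes with a mean of at least 50 (2.58%). The fold over all libraries was 1.54 (interval 1.11 to 2.13; DESeq2 log2 fold change 0.62, SE 0.24, adjusted p = 0.0328). When that library was left out, the log2 fold change was 1.03 (adjusted p = 1.08e-11). Without WT replicate 1 or 2 it was 0.43 and 0.47 (adjusted p = 0.383 and 0.197), without Pbrm1 cKO replicate 1, 2 or 3 the adjusted p was 0.0977, 0.186 and 0.0769. It was 0.0696 with edgeR, 0.0535 without independent filtering and 0.0959 with the gene length trend removed (log2 fold change 0.51), so 8 of the 14 alternatives lost the call. The part of that WT library in the result was not tested further.

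Epas1 (ENSMUSG00000024140.9, chr17:86753907-86833410, plus strand) encodes HIF-2α, an alpha subunit that is abundant in vascular endothelium and present in other cells too. It was at 72.7, 311 and 312 normalized counts in WT replicates 1 to 3 and at 226, 207 and 200 in Pbrm1 cKO replicates 1 to 3. The Pbrm1 cKO libraries agreed closely and lay between the WT libraries, since WT replicate 1 was at 23.3% of the mean of the other WT libraries. Over all libraries no difference was detectable, and the interval was wide (fold 0.909, interval 0.398 to 2.08; DESeq2 adjusted p = 0.906). Without WT replicate 1, Epas1 was lower in Pbrm1 cKO cells (log2 fold change -0.57, adjusted p = 0.00221), and without WT replicate 2 or 3 the estimate was 0.13 and 0.14 and not called.

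The low Epas1 value of WT replicate 1 went along with low endothelial markers in the same library, but not with these alone. Epithelial and leukocyte markers were low there too, at a median of 0.377 and 0.472 times the mean of the other WT libraries. The summed level of the 14 endothelial markers was 3601 normalized counts in WT replicate 1, 7643 and 7567 in WT replicates 2 and 3, and 3336 to 3962 in Pbrm1 cKO libraries. The Pbrm1 cKO sums were thus near that of WT replicate 1, whereas Epas1 was at 200 to 226 in Pbrm1 cKO libraries and 72.7 in WT replicate 1. Over the 14 markers, the median level in WT replicate 1 was 0.321 times the mean of the other WT libraries. Pecam1, an endothelial adhesion molecule, was at 18.7% of that mean, Emcn, an endothelial sialomucin, at 18.6%, and Tek, the angiopoietin receptor, at 14.6%, all below the median of the list, and Kdr, a VEGF receptor, was at 37.1%. Cdh5, the gene for VE-cadherin, was the exception at 111%. Between the groups 1 of the 14 was higher and 4 were lower (35.7% called, near the 31.1% of all tested genes). The lower markers included Emcn (log2 fold change -2.02, lost without any 1 library other than WT replicate 1) and Cdh5 (-1.89, adjusted p = 2.40e-46 in DESeq2). A WT replicate 1 at or below 0.5 times both other WT libraries was found for 304 of 10985 genes (2.77%). The part of endothelial content in the Epas1 values was not tested. The genes with the pattern most like that of Epas1 over the 6 libraries, as Pearson's r of log2 normalized counts among 10985 genes, were Klhl6 (r = 0.992) and Ptprb (0.991). For Hif1a they were Rab7b (0.999) and Zfhx3 (0.997). These likenesses are descriptions over 6 libraries, 3 of each group.

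**Figure D3:**
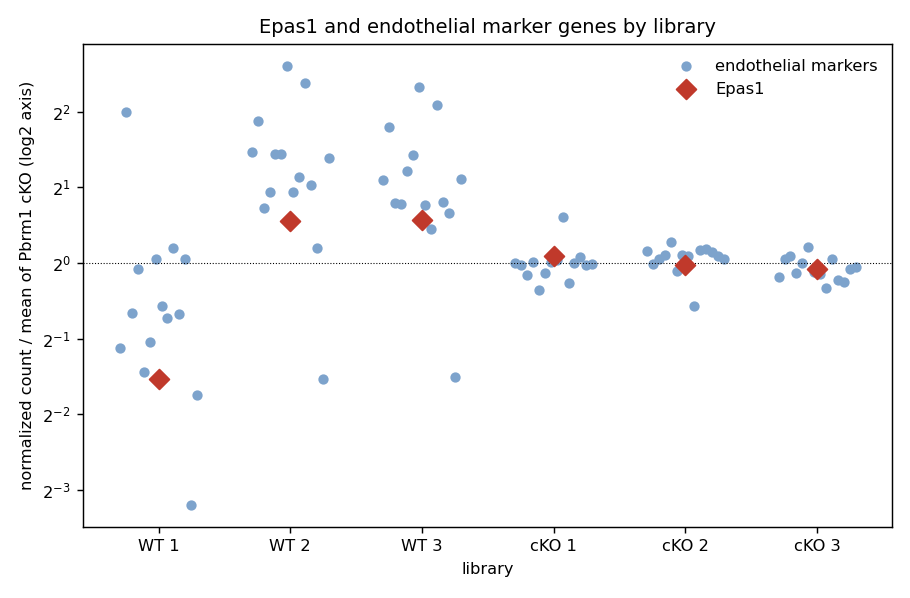
Normalized count of Epas1 (red diamonds) and of 14 endothelial marker genes (blue points) in each library, divided by the gene's mean over the Pbrm1 cKO libraries (log2 axis). WT replicate 1 lies below WT replicates 2 and 3 for Epas1 and for 13 of the 14 markers, and the Pbrm1 cKO libraries lie near 1 by construction.

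Per length, Epas1 transcripts were 0.00723, 0.0255 and 0.0276 of those of Hif1a in the WT libraries, against 0.0169, 0.0157 and 0.0159 in the Pbrm1 cKO libraries. The groups overlapped (exact two-sided permutation p = 1). Hif1a was thus the predominant alpha subunit transcript in every library.

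Among the targets, Adm fell, and Bnip3, Ankrd37 and Car9 did not pass the test. Adm (ENSMUSG00000030790.15, chr7:110627661-110629820, plus strand) is induced by HIF in many cells, and its peptide, adrenomedullin, also acts on vessels and on uterine receptivity. It was at 10567, 12504 and 11657 normalized counts in WT replicates 1 to 3 and at 8975, 8547 and 8544 in Pbrm1 cKO replicates 1 to 3. Every Pbrm1 cKO library was below every WT library. The means were 11576 ± 971 and 8689 ± 248 (SD, n = 3 each), so Adm fell to 75.1% of WT (interval of the fold 0.662 to 0.851; DESeq2 log2 fold change -0.41, SE 0.09, adjusted p = 6.82e-05). Leaving out each library in turn gave -0.48 to -0.36, with the call kept each time. The change did not reach the 1.5-fold filter of the study.

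Bnip3 (ENSMUSG00000078566.8, chr7:138890836-138909519, minus strand), a mitophagy receptor of the outer mitochondrial membrane and the member with the most core matches before its start, was at 2351, 2556 and 2259 normalized counts in WT and at 2388, 2303 and 2721 in Pbrm1 cKO replicates 1 to 3. The groups overlapped, and the interval of the fold was narrow, 0.897 to 1.19 around 1.03 (DESeq2 adjusted p = 0.791). Its level is uncertain, because processed copies such as Gm16439 share 98.9% identity over 564 bases and reads that map to several places were left out. Its paralog Bnip3l was at 972 ± 91.6 and 878 ± 16.4 (adjusted p = 0.354). Per length Bnip3 exceeded Bnip3l 4.20 ± 0.214 times in WT and 4.79 ± 0.378 times in Pbrm1 cKO cells, with an exact two-sided permutation p of 0.1, the smallest possible.

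Ankrd37 (ENSMUSG00000050914.16, chr8:45996902-46005707, minus strand), an ankyrin repeat gene known as a HIF-1 target, was at 54.5, 109 and 120 normalized counts in WT and at 95.7, 108 and 121 in Pbrm1 cKO replicates 1 to 3. Again WT replicate 1 was the low library, and the others overlapped. The fold was 1.15 with an interval of 0.771 to 1.71 (DESeq2 adjusted p = 0.683). Exons of Ufsp2 and Lrp2bp lie on the opposite strand, which stranded counting keeps apart. Car9 (ENSMUSG00000028463.14, chr4:43506966-43513729, plus strand), the membrane carbonic anhydrase that is among the most used tissue markers of hypoxia, had 1, 2 and 9 raw counts in the WT libraries, against 8, 7 and 3 in the Pbrm1 cKO libraries. It was therefore near the limit of detection in both groups, and at or under 3 counts in some libraries of each. The interval of the fold, 0.309 to 5.06, leaves a difference in either direction undetectable at this depth (DESeq2 adjusted p = 0.863).

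**Figure D4:**
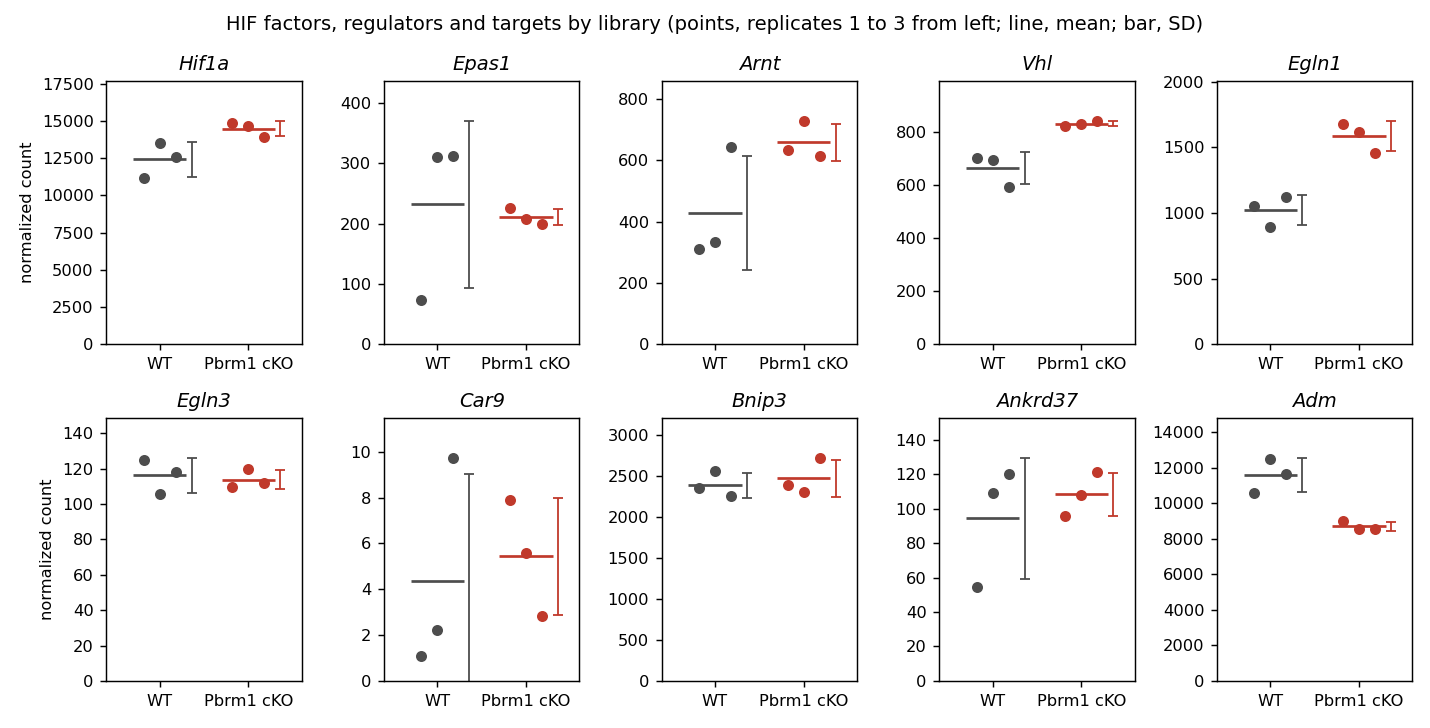
Normalized count of each of the 10 genes in every library, on axes that start at 0 (points, replicates 1 to 3 from left; line, group mean; bar, SD, drawn only above 0 for Car9). Egln1, Vhl and Hif1a are higher and Adm lower in every Pbrm1 cKO library, WT replicate 1 is low for Epas1 and Ankrd37, and WT replicate 3 is high for Arnt.

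The rest of the pathway was described with 6 lists of 123 genes, of which 113 were tested. They were chosen from general knowledge, but with earlier results of these data known. DESeq2 called 30 of them higher and 23 lower in Pbrm1 cKO cells (46.9%, beside 31.1% of all tested genes), with a median log2 fold change of 0.04. The lists were not matched to all genes for expression level and no test over the lists was made. The difference between these shares is therefore not a result about the pathway. Pathway genes thus changed in both directions within most lists. Of the 21 other genes of the oxygen-sensing machinery, 6 were higher and 5 lower (52.4% called, median -0.17). Hif1an, which encodes the asparagine hydroxylase FIH that blocks the activation domain of HIF-α, was at 283, 229 and 454 normalized counts in WT and at 690, 700 and 641 in Pbrm1 cKO replicates 1 to 3. It rose without overlap (322 ± 118 to 677 ± 31.6, log2 fold change 1.07, adjusted p = 6.19e-06), and WT replicate 3 was again the highest WT library. Kdm5c, a histone demethylase gene, also rose (0.48). P4htm, a membrane-bound prolyl hydroxylase gene, fell by 1.78 on the log2 scale, and its level was low (52.4 ± 12.6 to 15.2 ± 1.49 normalized counts).

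Several other machinery calls depended on single libraries. The paralog Arnt2 (log2 fold change 0.52, adjusted p = 0.0299), the remaining prolyl hydroxylase Egln2 (-0.29, 0.0338), Siah2, a ubiquitin ligase gene (-0.48, 0.0119), and Eloc, for the elongin C subunit of the VHL ligase (-0.39, 0.0179), passed the test with all libraries. The call of Arnt2 was lost in all 6 fits that left out 1 library, that of Egln2 in 5 of 6, that of Eloc in 4 and that of Siah2 in 3. Without Pbrm1 cKO replicate 1, 2 of the 21 genes were called lower, and without replicate 2 or 3, 3 were. Hif3a, the remaining alpha subunit gene, was near the limit of detection (5.06 ± 2.69 and 2.18 ± 3.00 normalized counts, not called).

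Of 43 tested non-glycolytic targets, 15 were higher and 7 lower (51.2%, beside 31.1% of all tested genes, median log2 fold change 0.16). Epo, the gene for erythropoietin, had no count. Vegfa, the angiogenic growth factor gene, was at 2517, 3404 and 3925 normalized counts in WT and at 6229, 5927 and 5962 in Pbrm1 cKO replicates 1 to 3. It rose without overlap (3282 ± 712 to 6039 ± 165, log2 fold change 0.88, adjusted p = 4.69e-08). Ndrg1, a stress-responsive target, rose from 578 ± 69.2 to 1301 ± 111 (1.17, adjusted p = 4.42e-18) and Ddit4, an inhibitor of mTORC1 signaling, from 263 ± 101 to 497 ± 17.0 (0.92, adjusted p = 0.000291). The highest log2 fold changes were those of Bhlhe41, a transcriptional repressor gene (2.62, 17.9 ± 9.17 to 110 ± 16.9), and Cxcr4, a chemokine receptor gene that leukocytes also express (2.09, 178 ± 57.3 to 757 ± 41.6). Trf, for transferrin, came next among these called targets (1.29), with a DESeq2 adjusted p of 0.0507 when Pbrm1 cKO replicate 1 was left out. In the opposite direction moved Car12, a carbonic anhydrase gene like Car9 (-2.45, 47.4 ± 1.81 to 8.70 ± 0.229), and Stc2, for a stanniocalcin hormone (-1.29, 794 ± 154 to 324 ± 26.4). Ppp1r3c, for a glycogen-targeting phosphatase subunit, also fell (-1.34, adjusted p = 0.0590 without WT replicate 2). Leukocyte markers rose in the same libraries, and their part in these calls was not tested.

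Of 21 glycolytic targets, 5 were higher and 4 lower (42.9%, beside 31.1% of all tested genes, median 0.03), and without WT replicate 1, 8 were higher. The bifunctional enzyme genes Pfkfb3 and Pfkfb4, which set the level of the activator of glycolysis fructose 2,6-bisphosphate, rose by 1.31 and 0.81 on the log2 scale, and Hk2, for the first step of glycolysis, by 0.78. Eno2, an enolase gene, fell by 1.66, Slc2a3, a glucose transporter gene, by 0.86 and Tpi1, for triosephosphate isomerase, by 0.64. These 6 calls held when any 1 library was left out.

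**Figure D5:**
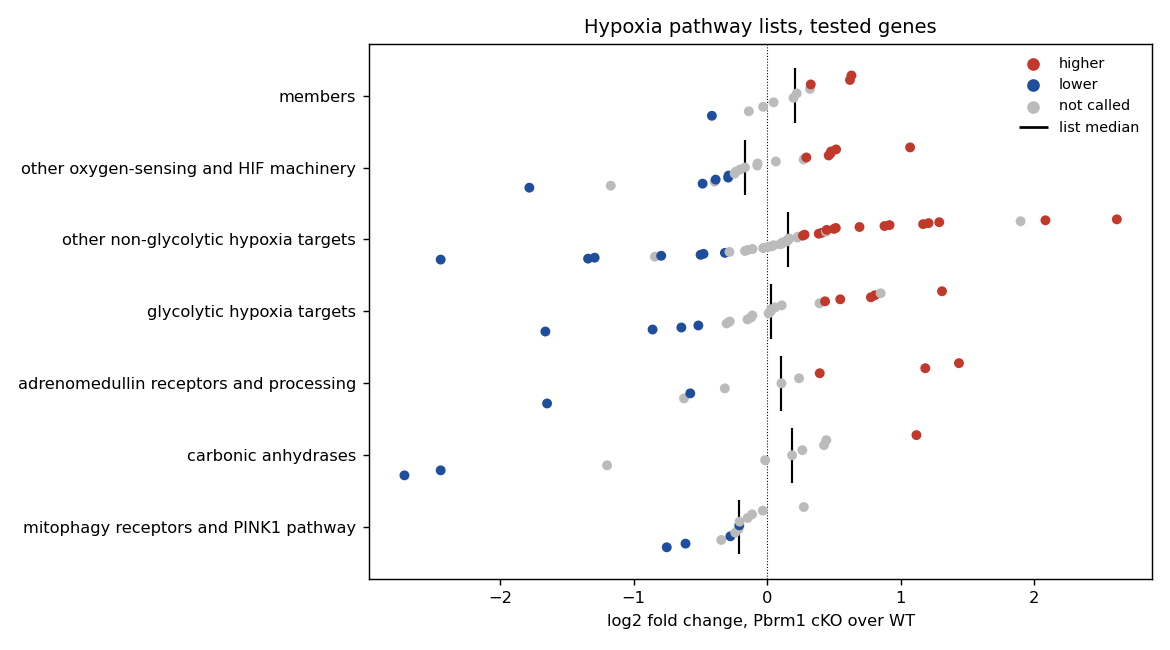
DESeq2 log2 fold change, Pbrm1 cKO over WT, of each tested gene of the 10 members and of the 6 lists (red, called higher; blue, called lower; grey, not called), with a black line at the median of each list. Every list but the mitophagy list holds calls in both directions, and the list medians lie between -0.21 and 0.21.

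Among the genes of the adrenomedullin receptors, Ramp1 rose and Ramp3 fell. Adrenomedullin binds the receptor CALCRL, whose ligand preference is set by the partner proteins RAMP1, RAMP2 and RAMP3. Ramp1 was at 279, 376 and 370 normalized counts in WT and at 903, 908 and 965 in Pbrm1 cKO replicates 1 to 3, a log2 fold change of 1.44 (adjusted p = 4.56e-23). RAMP1 with CALCRL forms the receptor for the related peptide CGRP. Ramp3, one of the partners that give adrenomedullin receptors, was at 4743, 5877 and 8145 in WT and at 4147, 4342 and 4100 in Pbrm1 cKO cells. It fell by 0.58 on the log2 scale (adjusted p = 0.00331) and by 0.34 without WT replicate 3, the highest library (0.00605). The other adrenomedullin receptor partner, Ramp2, was at 195 ± 31.1 and 157 ± 3.44 (log2 fold change -0.32, adjusted p = 0.194; without WT replicate 1, -0.45 and 0.0433). Calcrl was at 212, 489 and 426 in the WT libraries, against 426, 400 and 388 in the Pbrm1 cKO libraries, with WT replicate 1 again low and no call (0.11, adjusted p = 0.804).

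In that list, 3 of 9 tested genes were higher and 2 lower (55.6%, beside 31.1% of all tested genes, median 0.11), and Calcr had no count. Pam, the enzyme gene that amidates the peptide, rose by 0.39, a call that was lost with the gene length trend removed (log2 fold change 0.23, adjusted p = 0.0777). Adm2, for a related peptide, fell by 1.65 from a low level (31.4 ± 10.8 to 10.1 ± 4.44 normalized counts), and the call was lost without WT replicate 1 or Pbrm1 cKO replicate 2.

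Of 9 tested carbonic anhydrase genes, 1 was higher and 2 lower (33.3%, near the 31.1% of all tested genes, median 0.19). Car1, Car3, Car4 and Car5a had no count. The calls of Car12 and Car8 held when any 1 library was left out. The cytosolic enzyme gene Car2 was higher (log2 fold change 1.12, adjusted p = 0.0262), a call that was lost without WT replicate 1 or any 1 Pbrm1 cKO library, and Car8, whose product lacks catalytic activity, was lower (-2.72, 30.3 ± 16.4 to 4.68 ± 2.86). Of 12 tested genes of mitophagy receptors and the PINK1 pathway, 0 were called higher and 4 lower in DESeq2 (median -0.21). That share of 33.3% is near the 31.1% of all tested genes, of which 15.9% were called higher and 15.2% lower. At an unadjusted p under 0.05 1 was higher and 6 were lower, edgeR called 0 and 3, and limma voom 1 and 4. Map1lc3a, for an LC3 protein of the autophagosome, fell from 1556 ± 70.9 to 924 ± 35.1 (-0.75, adjusted p = 1.50e-13) with no overlap. Pink1, the kinase gene that marks damaged mitochondria (-0.61, 0.0277), and Gabarapl1, a relative of Map1lc3a (-0.28, 0.0114), lost their calls in 5 and 3 of the 6 fits that left out 1 library. The count of lower genes in this list was 1 without WT replicate 2 or Pbrm1 cKO replicate 1 or 2, and 2 without Pbrm1 cKO replicate 3.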

How the data were processed

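RNA-seq libraries of 3 WT and 3 Pbrm1 cKO preparations of mUSCs were analysed. The authors trimmed single-end reads, mapped them to GRCm38 (GRCm38.p5 in the submitters' processing notes) and counted them by strand with featureCounts 1.6.4 over the genes of GENCODE release 18 for mouse. The deposited values are raw counts per gene, not normalized, with replicates kept apart. The labels describe a total RNA kit with random and poly(T) priming, the study's methods poly(A) selection. Reads that map to several places or to several genes were left out by the program's defaults. Gene symbols were matched for 99.7% of identifiers.

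The groups were compared with the Wald test of DESeq2 1.42.0 (R 4.3.3), with its default size factors and filtering and without covariates, and p-values were adjusted by Benjamini-Hochberg over all genes tested, at 0.05. Log2 fold changes are unshrunken, Pbrm1 cKO over WT, and all adjusted p-values are from DESeq2 unless another tool is named. Intervals are 95% Wald intervals, not adjusted for multiple testing. Alternatives were edgeR 4.0.16 (quasi-likelihood), TMM size factors, a minimum mean of 10, no independent filtering, limma 3.58.1 (voom with a separate spread per group), a replicate block, removal of a gene length trend, the thresholds of the study (over 1.5-fold, p under 0.01, adjusted p under 0.1) and leaving out each library. Ratios between genes were tested with an exact permutation test in scipy 1.17.1. The steps were tested on simulated data with 100 genes changed 1.5-fold and 100 changed 2-fold. DESeq2 recovered 39 of the former and 71 of the latter, with 14 false calls. A gene that was not called can therefore still differ by such amounts.

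The members and lists were chosen with earlier results of these data known. Named genes are the members, Pbrm1, fixed paralogs and partners (Hif3a, Arnt2, Egln2, Hif1an, Bnip3l, Car12, Calcrl, Ramp2, Vegfa, Ndrg1 and Ddit4), at most 3 called genes with the highest and 3 with the lowest log2 fold change per list among those with a mean of at least 10, and the 2 genes most like Hif1a and Epas1. The endothelial markers Pecam1, Tek and Kdr were chosen after their values were seen. A gene that this rule would name is not reported here.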

Additional observations from a re-analysis of the deposited data

How the results depend on the processing

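Among the members, the calls of Egln1 and Adm held under the other tools, scalings and filters and without any 1 library, except that Adm is below the 1.5-fold limit of the study's thresholds. Hif1a, Vhl and Arnt kept their direction throughout but not their side of the threshold. The estimates of 5 members and of Calcrl changed sign, and none of these genes was called with all libraries in DESeq2. Epas1 was at 0.138 with limma voom and 0.096 with the replicate block, and from -0.565 to 0.135 when 1 library was left out, the lowest value being called (without WT replicate 1, adjusted p = 0.00221). Egln3 was at 0.005 with the length trend removed and from -0.098 to 0.026 without 1 library. The ranges without 1 library were -0.145 to 1.724 for Car9, -0.022 to 0.098 for Bnip3, -0.081 to 0.405 for Ankrd37 and -0.179 to 0.341 for Calcrl. The number of members called was 1 to 3 higher and 1 to 2 lower without 1 library, and 0 were lower under the study's thresholds, where DESeq2 had called 1. Those thresholds left 15 pathway genes higher and 12 lower of 30 and 23, and 1665 and 1452 over all genes. The counts over all genes are larger than the study reported for its own analysis at these cutoffs, and the reason was not tested. The study's thresholds add a fold limit and a limit on the unadjusted p but have a looser adjusted p, and which of these moved the counts was not tested. Pathway genes called lower were 15 to 26 without 1 library, and the cause was not tested. The median log2 fold change over genes whose mean was 10 or more lay between -0.011 and 0.010 under every setting. Car9, at a handful of counts, was left out by the filters of edgeR, limma voom and the minimum mean, and depth limits what can be said of it.

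The replicate numbers did not pair the libraries: deviations from the group means correlated at 0.114, -0.0515 and 0.0028 for the same numbers, and not every library correlated best with its own number. With the numbers as a replicate block, 2 members were called higher and 1 lower, Vhl losing its call (adjusted p = 0.0797), and 2175 genes were called higher and 1828 lower in all.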
